A study of Solanum lycopersicum with 6 samples.

Results

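The circadian clock of plants was examined through 10 genes in RNA sequencing of pericarp, the flesh around the seeds, from tomato fruit (*Solanum lycopersicum*). They were chosen by identifier and make up 10 of the 23709 genes that the files list in at least 1 library. The study compared fruit labelled SlDof1 RNAi (3 libraries) with wild-type fruit (3 libraries), both at 38 days post anthesis. Dof proteins are plant transcription factors with a single zinc finger, and RNAi uses double-stranded RNA to lower the transcripts of a chosen gene. The labels do not tie SlDof1 to an identifier, so its silencing was not checked here. They give neither the promoter of the RNAi construct nor the number of transgenic lines behind the 3 libraries, whose titles carry the name SlDof-8. They also give no time of day of the harvest. Total expected counts per library were 9641678 to 9942009 in RNAi-labelled fruit and 9608643 to 10002358 in wild-type fruit. *RIN* and *NOR*, transcription factor genes needed for ripening of the fruit, were read as genes of ripening fruit and do not check the pericarp label. *RIN* lay between 217 and 295 FPKM in RNAi-labelled libraries and between 341 and 530 FPKM in wild-type libraries, and *NOR* between 184 and 211 FPKM in RNAi-labelled libraries and between 241 and 293 FPKM in wild-type libraries. Both were lower in RNAi-labelled fruit without overlap, and whether the groups differed in ripening was not tested. FPKM counts fragments per length of transcript and per size of library.

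The plant clock is a set of genes that repress one another in turn, so that each is transcribed at its own time of day. In *Arabidopsis*, where most of these roles were worked out, the Myb-like factor LHY is made around dawn and represses the evening genes, among them *TOC1*, *GI* and *ELF3*. The pseudo-response regulators PRR9 and PRR7 follow during the day and repress *LHY*, and TOC1 does so at night. The GI protein binds the light-sensing F-box protein FKF1, and the pair directs the breakdown of CDF proteins, which are Dof factors that hold back flowering genes. Cultivated tomato carries a deletion in *LNK2*, and its clock runs more slowly than that of its wild relatives. Clock transcripts swing strongly over a day, so a difference between samples in the hour of harvest can appear as a shift of morning genes against evening genes.

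The members were grouped by the time of day at which their counterparts are known to peak. The morning group held *LHY* (Solyc10g005080.2), *PRR9* (Solyc10g005030.2) and *LNK2* (Solyc01g068560.2). *PRR37* (Solyc10g086000.1), a pseudo-response regulator made around the middle of the day, was kept apart. The evening group held *GI* (Solyc04g071990.2), *GI-like* (Solyc12g056650.1), *FKF1* (Solyc01g005300.2), *TOC1* (Solyc06g069690.2), *TOC1-like* (Solyc03g115770.2) and *ELF3* (Solyc08g065870.2). These names came with the list of members. The files pair identifiers with no names, and none of the 10 names is in the RefSeq gene table (assembly SLM_r2.1), so they were not checked further. By their identifiers *PRR9* and *LHY* are close neighbours on chromosome 10, with 3 listed identifiers between them. Reads shared between close copies can leave fractions in the counts. All 60 counts of the members (10 genes in 6 libraries) were whole, as were 94.5% to 94.9% of all listed counts in each library.

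Transcript levels of the clock genes in RNAi-labelled fruit lay close to those in wild-type fruit. Of the 10 members, all of which had enough counts to be tested, 1 fell (*FKF1*), 0 rose and 9 did not pass the test (quasi-likelihood test of edgeR, p-values adjusted by Benjamini-Hochberg over every tested gene, threshold 0.05). Over all 16737 tested genes 12.3% passed, 6.54% higher and 5.8% lower. At an unadjusted p under 0.05 the edgeR test gave 1 member, against 25.3% of all tested genes. DESeq2 also called 1 member, and over all genes it called 1016 higher and 870 lower. Limma on log2(FPKM + 1) called 0 members, and over the 16737 tested genes it called 1252 higher and 714 lower. At an unadjusted p under 0.05 limma gave 2 members, and the share of all genes at that limit was not taken. The median log2 fold change of the members was -0.01, as was that of all tested genes. The median absolute log2 fold change was 0.094 for the members, 0.189 for all tested genes and 0.15 for the 10047 tested genes with a mean of at least 10 FPKM, a level that every member reached. Here, as in any bulk sample, fewer cells of a type and less RNA per cell cannot be told apart.

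A p that misses the threshold does not show that a gene is unchanged, so the intervals of the fitted differences are given as well. For all 10 members the 95% interval of the fold change lay within 1.5-fold in either direction. The same held for 51.3% of all tested genes and for 68.9% of those with a mean of at least 10 FPKM. The interval of *PRR9* ran from 0.747 to 1.29 on the fold scale, and that of *GI* from 0.84 to 1.09.

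**Figure D1:**
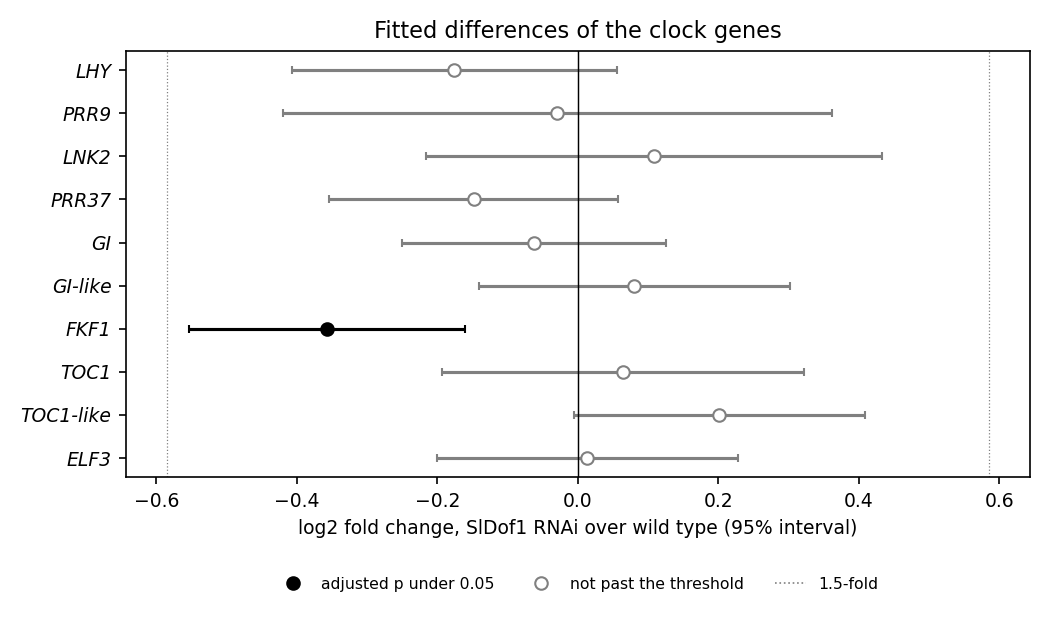
Fitted log2 fold change of each clock gene, RNAi-labelled over wild-type fruit (x axis, edgeR), with its 95% interval, for the 10 members (y axis); the filled point passed the adjusted threshold of 0.05 and dotted lines mark 1.5-fold. All intervals lie between the dotted lines, and only *FKF1*, at -0.36, passed.

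Among the morning genes, *LHY* encodes the Myb-like repressor of the dawn phase. It had 34.6, 35.7 and 30 FPKM in RNAi-labelled libraries 1 to 3 and 35.4, 38.8 and 35.1 FPKM in wild-type libraries 1 to 3. The groups overlapped in FPKM, and RNAi-labelled library 3 was the lowest of the 6. The log2 fold change was -0.18 ± 0.10 (SE; edgeR adjusted p = 0.332), with a 95% interval of the fold change from 0.754 to 1.04.

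*PRR9* encodes a pseudo-response regulator, one of the proteins that repress *LHY* during the day. It had 21.3, 22.3 and 32 FPKM in RNAi-labelled libraries 1 to 3 and 29.4, 22 and 22.7 FPKM in wild-type libraries 1 to 3. The high values were those of 1 library in each group, RNAi-labelled library 3 and wild-type library 1, and the other 4 libraries lay between 21.3 and 22.7 FPKM. Between the groups the log2 fold change was -0.03 ± 0.17 (SE; edgeR adjusted p = 0.947). Its sign is not settled by these data: with limma on log2(FPKM + 1) it was 0.015, and over the edgeR fits that leave out 1 library it lay between -0.22 and 0.11.

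*LNK2* encodes a coactivator that works with Myb-like clock factors in *Arabidopsis*. It had 15.7, 17.8 and 16.8 FPKM in RNAi-labelled libraries 1 to 3 and 17, 13.6 and 14.3 FPKM in wild-type libraries 1 to 3, so that the groups overlapped through wild-type library 1. With a listed length of 714 bases it had the fewest counts of the members, 88 to 117 per library, and the log2 fold change was 0.11 ± 0.14 (SE; edgeR adjusted p = 0.705). The daytime gene *PRR37* had 24.1, 21.9 and 24.3 FPKM in RNAi-labelled libraries 1 to 3 and 26.4, 25.5 and 23.1 FPKM in wild-type libraries 1 to 3. These groups overlapped in FPKM as well, with a log2 fold change of -0.15 ± 0.09 (SE; edgeR adjusted p = 0.36).

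**Figure D2:**
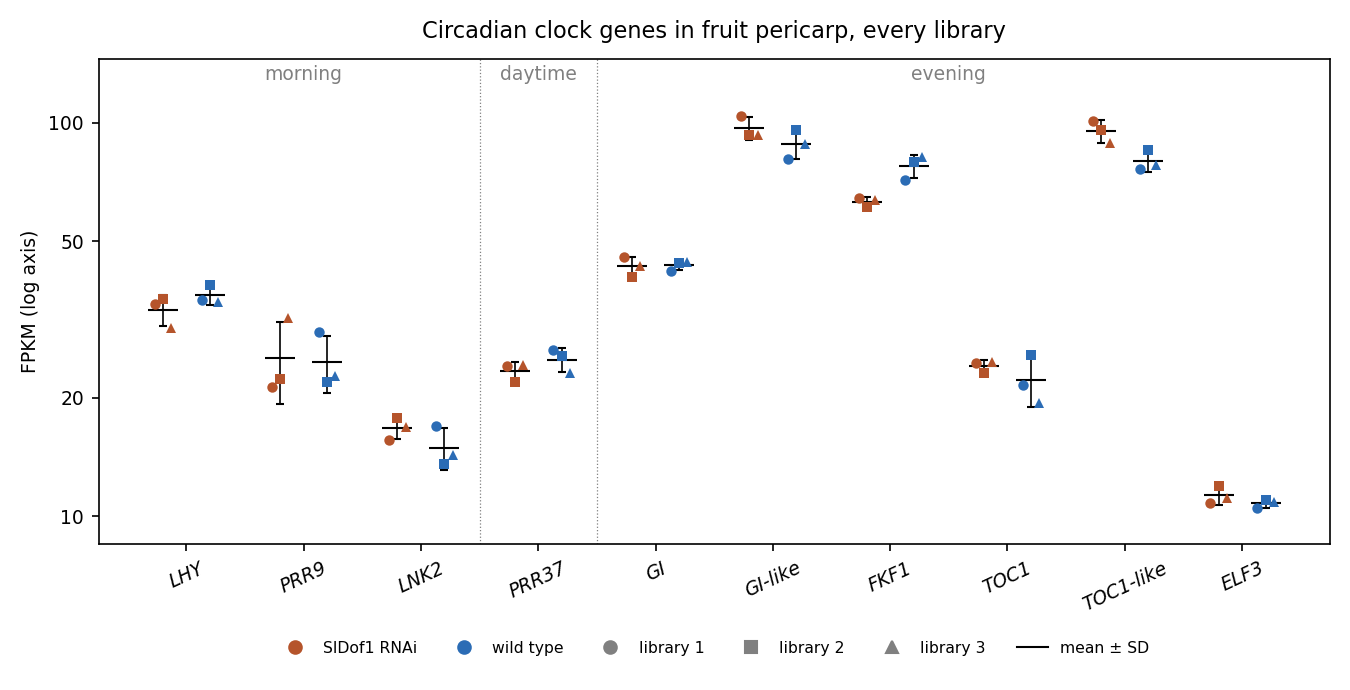
FPKM on a log axis (y axis) of the 10 clock genes (x axis) in every library; each point is 1 library, its shape gives the library number, and black bars show the mean and SD of 3 libraries. The groups overlap for 8 genes, and *FKF1* (61 to 64.2 FPKM in RNAi-labelled fruit, 71.6 to 81.7 FPKM in wild-type fruit) and *TOC1-like* (88.7 to 101 FPKM in RNAi-labelled fruit, 76.1 to 85 FPKM in wild-type fruit) are apart.

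Of the evening genes, *FKF1* was lower in RNAi-labelled fruit. This gene encodes an F-box protein that senses blue light and, with GI, marks CDF proteins for breakdown in *Arabidopsis*. It had 64.2, 61 and 63.7 FPKM in RNAi-labelled libraries 1 to 3 and 71.6, 79.5 and 81.7 FPKM in wild-type libraries 1 to 3. Every RNAi-labelled library lay below every wild-type library. *FKF1* averaged 63 ± 1.76 FPKM in RNAi-labelled fruit and 77.6 ± 5.34 FPKM in wild-type fruit (SD, n = 3 each), with a log2 fold change of -0.36 ± 0.09 (SE; edgeR adjusted p = 0.0298) and a fold change of 0.781 (95% interval 0.681 to 0.895). Most fits that leave out a single library lost the call. *FKF1* did not pass when RNAi-labelled library 1, 2 or 3 or wild-type library 2 or 3 was left out (edgeR adjusted p from 0.0622 to 0.122), and passed when wild-type library 1 was (0.0175); the log2 fold change in these 6 fits stayed between -0.42 and -0.31. Nor did it pass when limma was run on log2(FPKM + 1), where the adjusted p was 0.0585.

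*GI*, whose product partners FKF1, did not pass the test. It had 45.6, 40.5 and 43.3 FPKM in RNAi-labelled libraries 1 to 3 and 42.1, 44 and 44.1 FPKM in wild-type libraries 1 to 3. The wild-type values lay inside the range of the RNAi-labelled ones, and the log2 fold change was -0.06 ± 0.08 (SE; edgeR adjusted p = 0.703). The ratio of *FKF1* to *GI* in FPKM was 1.41, 1.5 and 1.47 in RNAi-labelled libraries 1 to 3 and 1.7, 1.81 and 1.85 in wild-type libraries 1 to 3. The ranges of this ratio did not overlap; it is given as a description, since *FKF1* was already known to differ.

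*GI-like*, the second *GI* gene, had the highest mean of the members in both groups, but its range overlapped that of *TOC1-like* in both, and it was above *TOC1-like* in 5 of 6 libraries. It had 104, 93.2 and 93.2 FPKM in RNAi-labelled libraries 1 to 3 and 80.8, 95.6 and 88.1 FPKM in wild-type libraries 1 to 3. The groups overlapped, and the log2 fold change was 0.08 ± 0.10 (SE; edgeR adjusted p = 0.675). Its level was 2.24 ± 0.081 times that of *GI* in RNAi-labelled fruit and 2.03 ± 0.128 times in wild-type fruit (SD, n = 3 each).

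*TOC1* and *TOC1-like* encode pseudo-response regulators of the evening. *TOC1-like* had 101, 95.8 and 88.7 FPKM in RNAi-labelled libraries 1 to 3 and 76.1, 85 and 78.2 FPKM in wild-type libraries 1 to 3. Every RNAi-labelled library lay above every wild-type library, but the difference did not pass the test, with a log2 fold change of 0.20 ± 0.09 (SE; edgeR unadjusted p = 0.0557, adjusted p = 0.212) and a fold change of 1.15 (95% interval 0.996 to 1.33). *TOC1* had 24.5, 23.1 and 24.6 FPKM in RNAi-labelled libraries 1 to 3 and 21.6, 25.7 and 19.4 FPKM in wild-type libraries 1 to 3, and there the wild-type range enclosed the RNAi-labelled one (log2 fold change 0.06 ± 0.11 SE, edgeR adjusted p = 0.788). *TOC1-like* stood at 3.96 ± 0.306 times the level of *TOC1* in RNAi-labelled fruit and 3.63 ± 0.375 times in wild-type fruit (SD, n = 3 each).

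*ELF3*, whose product is part of the evening complex that represses *PRR9* in *Arabidopsis*, was the least abundant member. It had 10.8, 12 and 11.1 FPKM in RNAi-labelled libraries 1 to 3 and 10.5, 11 and 10.9 FPKM in wild-type libraries 1 to 3. The groups overlapped, and the log2 fold change was 0.01 ± 0.09 (SE; edgeR adjusted p = 0.955). In all, 2 of the 10 members had groups whose FPKM ranges were apart, against 31% of all tested genes. Which members are apart depends on the scale. On TMM-scaled log2 counts *TOC1-like* overlapped, whereas *LHY* and *PRR37* were narrowly apart. The highest RNAi-labelled and lowest wild-type values were 6.697 and 6.711 for *LHY*, and 5.683 and 5.685 for *PRR37*. The share of all genes on that scale was not taken.

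The order of the levels was much the same in both groups. *GI-like*, *TOC1-like* and *FKF1* led, followed by *GI* and *LHY*, then *PRR9*, *PRR37* and *TOC1* at similar levels, and *LNK2* and *ELF3* at the end. The place of *FKF1* relative to *TOC1-like* differed. In RNAi-labelled fruit *FKF1* lay below every *TOC1-like* value, at 0.635, 0.636 and 0.718 of the *TOC1-like* FPKM in libraries 1 to 3, whereas in wild-type fruit the 2 ranges overlapped, with ratios of 0.94, 0.935 and 1.05. Both genes were already known to be apart in FPKM, in opposite directions. The ratio was therefore bound to separate the groups and is no further result. *PRR9*, *PRR37* and *TOC1* overlapped their neighbours in the order in both groups and cannot be ranked among themselves. *GI* lay above *LHY*, and *LNK2* above *ELF3*, in every library of both groups.

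The balance of morning and evening genes was described by the mean log2(FPKM + 1) of the 3 morning members minus that of the 6 evening members. It was -0.97, -0.81 and -0.75 in RNAi-labelled libraries 1 to 3 and -0.61, -0.96 and -0.87 in wild-type libraries 1 to 3. The ranges overlapped across most of their width. The mean was -0.84 ± 0.11 in RNAi-labelled fruit and -0.82 ± 0.18 in wild-type fruit (SD, n = 3 each), a difference of -0.03, which is smaller than either SD. The morning mean was 4.65 ± 0.08 in RNAi-labelled fruit and 4.63 ± 0.11 in wild-type fruit, and the evening mean 5.49 ± 0.04 in RNAi-labelled fruit and 5.44 ± 0.08 in wild-type fruit, on the same scale. No p is given for a score over chosen members.

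**Figure D3:**
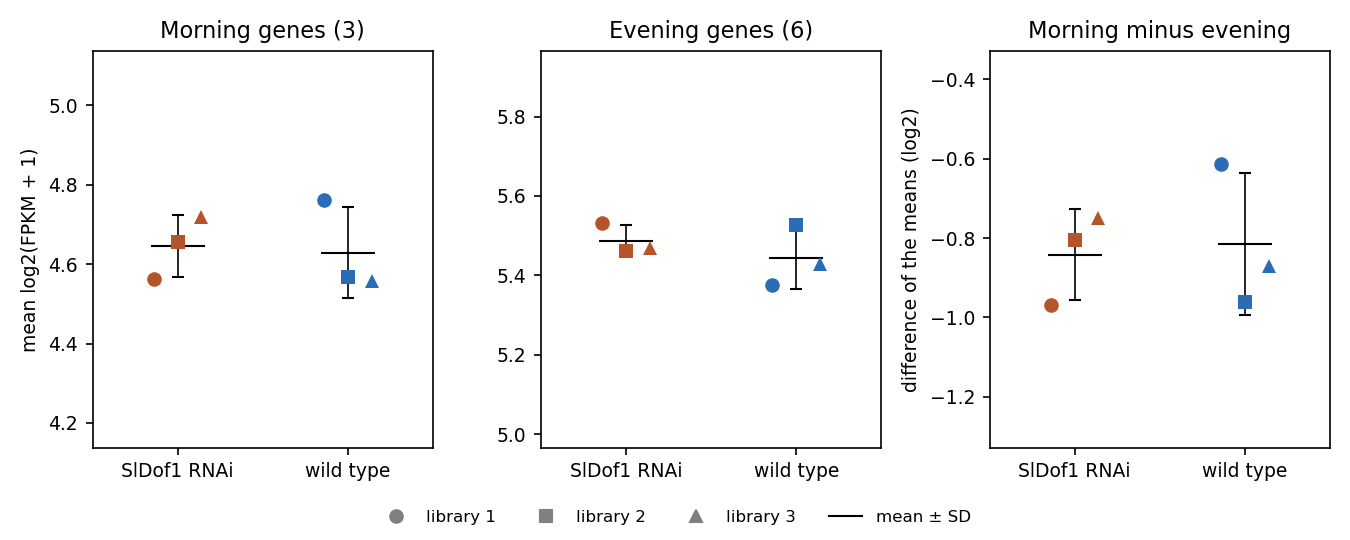
Mean log2(FPKM + 1) of the 3 morning and of the 6 evening clock genes and their difference (y axes, each spanning 1 log2 unit) in RNAi-labelled and wild-type libraries (x axis); points are libraries, with the mean and SD of 3. The group means of the difference are -0.84 in RNAi-labelled fruit and -0.82 in wild-type fruit, and the libraries of both groups overlap.

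Within each class the members differed in sign. Of the 3 morning members 1 had a fitted log2 fold change above 0 and 2 below, and of the 6 evening members 4 were above and 2 below. *LHY* and *TOC1*, which repress each other, stood at an FPKM ratio of 1.41, 1.54 and 1.22 in RNAi-labelled libraries 1 to 3 and 1.64, 1.51 and 1.81 in wild-type libraries 1 to 3, with overlap. The ratio of *LHY* to *GI* was 0.758, 0.882 and 0.693 in RNAi-labelled libraries 1 to 3 and 0.841, 0.881 and 0.795 in wild-type libraries 1 to 3, also with overlap. No time course of the same tissue was used here, so these ratios were not turned into an hour of harvest. They bear only on whether the groups differed from each other.

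Over the whole transcriptome, 1 library of each group differed from the remaining 4: RNAi-labelled library 3 and wild-type library 1. The second principal component of library-scaled log2 counts, with 30.4% of the variance, put them at -32.2 and -32.6 and the other 4 libraries between 13.7 and 18.3. For 32.4% of all tested genes both libraries lay on the same side outside the range of the other 4. Of the 10 members this held for 1, *PRR9*, at a mean of 30.7 FPKM in these 2 libraries and 22.1 FPKM in the others, a ratio of 1.39. For the other 9 members the ratio lay between 0.907 (*LHY*) and 1.1 (*LNK2*), and at least 1 of the 2 libraries lay inside the range of the others. The ratio of *PRR9* to *LHY* was 1.07 in RNAi-labelled library 3 and 0.83 in wild-type library 1, and 0.567 to 0.648 in the other 4. This split was found in these same data and gets no test; what sets the 2 libraries apart was not tested. Without both, edgeR called *FKF1* lower and *TOC1-like* higher (adjusted p = 0.000887 and 0.0357), where 21.8% of all tested genes passed. With a term for these 2 libraries it called *LHY* and *FKF1* lower and *TOC1-like* higher (adjusted p = 0.0342, 9.76e-05 and 0.00762), where 32.2% of all tested genes passed. Because the term was chosen from these data it may lower the residual spread by selection, which was not tested. With 1 of the 2 libraries in each group, the term could hardly move the fold changes (log2 fold change of *LHY* -0.18 and of *TOC1-like* 0.20 in that fit).

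**Figure D4:**
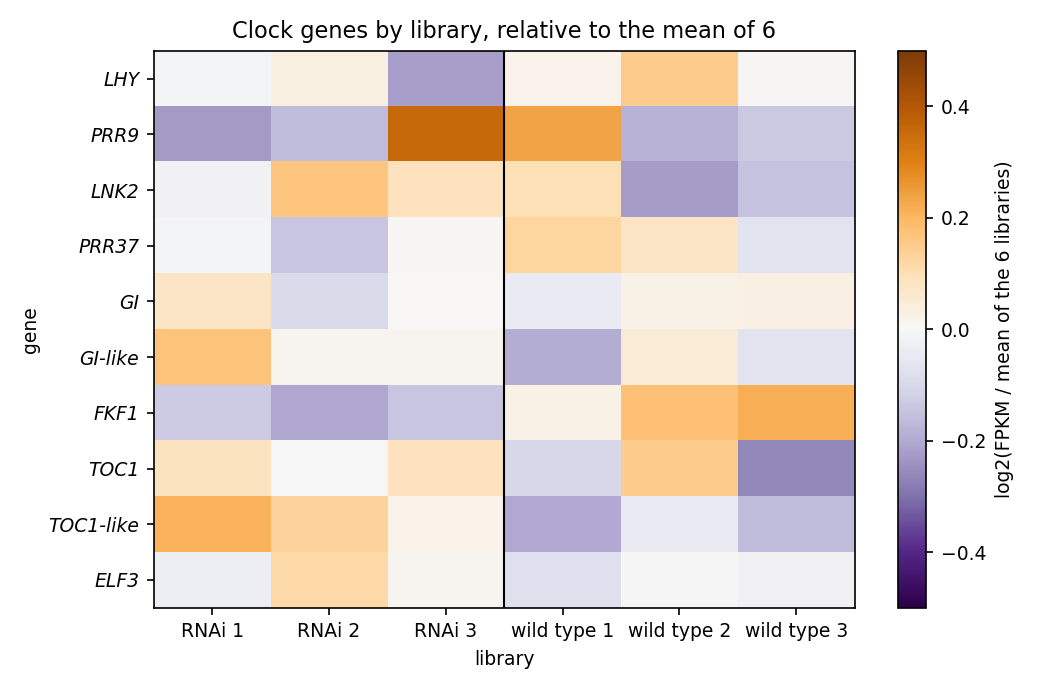
Colour gives the log2 ratio of a gene's FPKM to its mean over the 6 libraries, for the 10 clock genes (rows) in RNAi-labelled libraries 1 to 3 and wild-type libraries 1 to 3 (columns). *PRR9* is high in RNAi-labelled library 3 (32 FPKM) and wild-type library 1 (29.4 FPKM), and the *FKF1* row is low in all RNAi-labelled libraries.

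The members were measured with little spread. Their within-group coefficient of variation in FPKM had a median of 6.84%, against 10.1% for tested genes with a mean of at least 10 FPKM. It was lowest for *ELF3* at 4.2% and highest for *PRR9* at 20.4%. Counting error alone gives 9.83% for *LNK2* and 5.99% for *ELF3*, which is at or above the spread seen for them (9.39% and 4.2%), and 1.78% for *GI-like*, where the spread was 7.4%. From the lowest to the highest of the 6 libraries the members differed by 1.13-fold (*GI*) to 1.5-fold (*PRR9*).

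Another 22 genes of the clock and of its outputs had been listed by identifier beside the members. Of these 21 were listed in the files and 19 tested: 1 rose, 2 fell and 16 did not pass. The called share was 15.8%, near the 12.3% of all tested genes. Their median log2 fold change was 0.12, against -0.01 over all tested genes, and their median absolute log2 fold change 0.285, against 0.189. FPKM ranges of the groups were apart for 10 of the 19, against 31% of all tested genes. This count depends on the scale, since FPKM was not scaled by TMM. On TMM-scaled log2 counts Solyc09g075080.2, 1 of the 10, overlapped (4.77 in RNAi-labelled library 1, 4.79 in wild-type library 2). Solyc06g005680.2 overlapped only in FPKM (scaled, 3.547 in RNAi-labelled library 1, 3.56 in wild-type library 3). The share of all genes on the scaled counts was not taken. The 95% interval lay within 1.5-fold for 42.1%, against 51.3% of all tested genes. Solyc10g084370.1 had the largest fitted difference (log2 fold change 0.85) but did not pass (edgeR adjusted p = 0.0529). Of the 22 names 6 could be found in RefSeq on the same chromosome as the identifier, and the other genes are given by identifier. *COP1* (Solyc12g005950.1) encodes a ubiquitin ligase that represses light responses. It had 18.8, 17.7 and 21.1 FPKM in RNAi-labelled libraries 1 to 3 and 27, 24.8 and 22.1 FPKM in wild-type libraries 1 to 3, without overlap, and fell (log2 fold change -0.41 ± 0.11 SE; adjusted p = 0.037 in edgeR). The *COP1* call was lost when RNAi-labelled library 1 or 2 or wild-type library 1, 2 or 3 was left out (highest adjusted p of edgeR 0.161), with limma (adjusted p = 0.0968) and in edgeR without a filter on low counts (adjusted p = 0.0547).

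Solyc03g081240.2 was lower by more than any member. It had 14.8, 12.5 and 14.1 FPKM in RNAi-labelled libraries 1 to 3 and 20, 19.9 and 20.5 FPKM in wild-type libraries 1 to 3 (log2 fold change -0.60 ± 0.09 SE, edgeR adjusted p = 0.00494). It passed in all 13 alternative fits, with an adjusted p of at most 0.0435. Solyc02g036370.2 rose, with 15.7, 14.6 and 14.8 FPKM in RNAi-labelled libraries 1 to 3 and 11.3, 11.2 and 10.7 FPKM in wild-type libraries 1 to 3 (log2 fold change 0.39 ± 0.09 SE, edgeR adjusted p = 0.0288). That call was lost when RNAi-labelled library 1 or 2 or wild-type library 2 or 3 was left out (highest adjusted p of edgeR 0.111) and with DESeq2 (adjusted p = 0.0715).

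Outputs of the clock were represented by *CO1* (Solyc02g089540.2) and *CO3* (Solyc02g089520.1), relatives of the flowering regulator CONSTANS, among others. *CO1* had 7.1, 7.08 and 6.96 FPKM in RNAi-labelled libraries 1 to 3 and 3.42, 5.6 and 3.78 FPKM in wild-type libraries 1 to 3. The groups did not overlap, but the difference did not pass (log2 fold change 0.67 ± 0.19 SE, edgeR adjusted p = 0.0559). *CO3* averaged 19.9 ± 3.88 FPKM in RNAi-labelled fruit and 15.1 ± 3.56 FPKM in wild-type fruit (SD, n = 3 each; edgeR adjusted p = 0.318). *LNK1* (Solyc01g105120.2), the relative of *LNK2*, averaged 69.8 ± 6.97 FPKM in RNAi-labelled fruit and 65.9 ± 6.65 FPKM in wild-type fruit (SD, n = 3 each; log2 fold change 0.03, edgeR adjusted p = 0.908). The flowering gene *SP3D* (Solyc03g063100.1) was at most 0.42 FPKM in any library and was not tested, and *SP5G* had no row in the files.

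The 2 libraries that differed from the other 4 did so in the wider list about as often as over all tested genes. Both lay below the range of the others for 6 of its 19 tested genes, or 31.6%, against 32.4% of all tested genes on either side. For Solyc04g049680.2 the distance was larger than for *PRR9*, with 11.8 FPKM in RNAi-labelled library 3 and 14.6 FPKM in wild-type library 1, and 24.8 to 41.6 FPKM in the other 4 libraries. *LNK1* had 61.9 FPKM in RNAi-labelled library 3 and 60 FPKM in wild-type library 1, and 64.5 to 75.3 FPKM in the other 4.

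**Figure D5:**
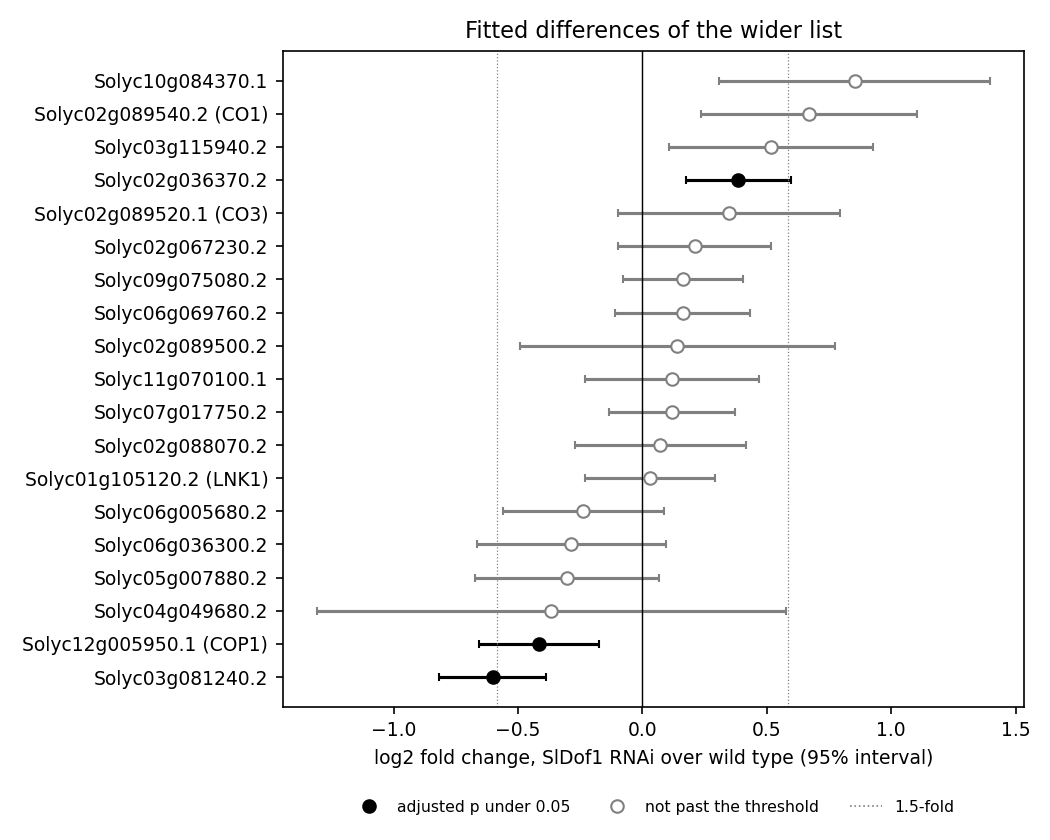
Fitted log2 fold change, RNAi-labelled over wild-type fruit (x axis, edgeR), with 95% interval (not adjusted for the number of genes) for the 19 tested genes of the wider list (y axis); filled points passed the adjusted threshold of 0.05 and dotted lines mark 1.5-fold. Solyc02g036370.2 rose (0.39), *COP1* (-0.41) and Solyc03g081240.2 (-0.60) fell, and the other 16 did not pass.

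The genes whose pattern over the 6 libraries was most like that of *LHY* and *GI* were sought among 12677 tested genes with a mean of at least 5 FPKM. Pearson's r of log2(FPKM + 1) with *LHY* was 0.978 for Solyc08g061590.2 and 0.974 for Solyc07g005580.2 (n = 6 libraries; Spearman's rho 0.829 and 0.771), but 0.453 and 0.671 without the 2 libraries farthest from the median of *LHY*. With *GI* it was 0.987 for Solyc12g088920.1 and 0.972 for Solyc01g110990.2 (n = 6 libraries; rho 0.943 and 1), and 0.967 and 0.953 without the 2 farthest libraries. These are the highest values of a search over many genes and only 6 libraries, and are given with no p.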

How the data were processed

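The deposited files give, per the file headers, an expected count and an FPKM value for each gene of each library; the aligner, counting program, genome build and use of strand by the authors were not given in the sources used. Whole means within 0.005 of a whole number. Genes with no row in a file were taken as 0 there. The members and lists were chosen with earlier results of these data known.

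Expected counts were rounded. Low genes were removed by filterByExpr (minimum count 10, minimum total 15), libraries were scaled by TMM, and genes were tested with edgeR 4.0.16 (quasi-likelihood test, group as the only term, R 4.3.3), with Benjamini-Hochberg adjustment over all tested genes. FPKM values were used as listed, without TMM scaling, also in limma. The TMM factors were 1.01 to 1.04 in RNAi-labelled libraries and 0.967 to 0.995 in wild-type libraries. Standard errors were derived from the log2 fold change and its F statistic, and intervals use the moderated degrees of freedom. The test was tried on simulated counts. Alternatives were DESeq2 1.42.0, limma 3.58.1 on log2(FPKM + 1), other size factors, no filter, a replicate block, and fits without 1 or 2 libraries. The labels do not say whether libraries are separate plants, so the p-values cover only the spread among these samples, which may be technical. The genes named were the 10 members, the wider-list genes that passed, the list's genes with a RefSeq name, and the 2 genes most correlated with *LHY* and with *GI*. From the wider list Solyc10g084370.1 was added for its largest fitted difference. Solyc04g049680.2 was added for its distance between the 2 libraries that stand apart and the other 4. Solyc09g075080.2 and Solyc06g005680.2 were added as examples of ranges that depend on scaling.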

Additional observations from a re-analysis of the deposited data

How the results depend on the processing

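Of 130 refits of single members (10 members, 13 alternatives), 113 kept their direction and their side of the threshold. *FKF1* was lower in all 13 and passed in 6. The sign turned for 3 members that were not called: *PRR9* (0.015 with limma, and -0.22 to 0.11 without 1 library), *TOC1* (-0.019 to 0.18 without 1 library) and *ELF3* (-0.020 to 0.057 without 1 library). Limma used FPKM without TMM scaling, and its log2 fold change was above that of edgeR for every member (for *FKF1* -0.30 against -0.36). The cause of the turned signs was not tested. The count of members lower was 0 with limma, 0 with the replicate block, 2 with a term for the 2 libraries that stand apart and 0 to 1 without 1 library; the count higher was 1 in the 4 other libraries, 1 with the term and 0 without any 1 library. In the wider list the count higher was 0 with DESeq2 and with the replicate block, 3 with limma, 4 in the 4 libraries and 4 with the term (0 to 2 without 1 library), and the count lower was 1 with limma, without a filter and with the block and 4 with the term (1 to 2 without 1 library). Over all genes 496 rose and 381 fell with the replicate block, 1904 and 1748 in the 4 libraries, 2664 and 2720 with the term, against 1094 and 971; without 1 library 584 to 1122 rose and 461 to 893 fell. The morning minus evening difference moved by less than the SD under all 11 alternatives (-0.10 to 0.07 without 1 library). Leaving out 1 of 3 libraries cannot move a group mean by a full SD, so those settings could not have failed this limit. The sign of the difference is not settled. It was -0.03 with all libraries, 0.037 without RNAi-labelled library 1 and 0.074 without wild-type library 1. When RNAi-labelled library 3 and wild-type library 1 were both left out, it was 0.028. With the replicate block the edgeR adjusted p was 0.174 for *FKF1*, 0.16 for *COP1* and 0.16 for Solyc02g036370.2. The labels do not say that same-numbered libraries are paired. Deviations of same-numbered libraries correlated at -0.493, 0.279 and -0.521 over genes. These values cannot settle pairing, because the split of RNAi-labelled library 3 and wild-type library 1 (correlation 0.696) weighs on all of them. Depth limits *LNK2* most, at 88 to 117 counts per library.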
